A study of Capra hircus with 12 samples.

Results

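The let-7 miRNAs of embryonic cashmere goat skin were 7 rows of the miRNA table, selected as those whose name began with oar-let-7, among 151 rows that carried a sheep miRNA name and 649 rows in all. The names are those of sheep miRNAs (oar), while the RNA came from the goat, Capra hircus. Flank skin was taken from goat embryos on embryonic day 45 (E45), day 55 (E55) or day 65 (E65), the skin of 3 embryos per stage was mixed, and 1 small RNA library was made from each mixture. The embryos came from a cashmere breed, and the labels give no treatment and no genetic alteration. The stages differ by age, and may also differ by sequencing instrument, which is not given for each library. With 1 library per stage no test between stages was possible, and each comparison below describes these 3 libraries with their counting error only. Levels are given as RPM, which the study called TPM. The reads of a row were scaled so that the 649 rows of a library sum to about 1000000. The low RPM values were whole multiples of 1 read. Summed over the rows, this gave about 2455536 reads at E45 against 4125781 at E55 and 2344827 at E65. Reads of a sequence listed in several rows count in each, and reads outside the 649 rows are not included. A share of the library below means a share of this sum.

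miRNAs are short RNAs that guide Argonaute proteins to target mRNAs, mainly through the seed, bases 2 to 8 of the mature strand. The let-7 family was found as a timing gene in the worm, and in mammals its mature members generally accumulate as tissues leave the early embryonic state, while the RNA-binding protein LIN28 blocks the processing of their precursors. The mRNAs of HMGA2, LIN28B, IGF2BP1 and RAS genes are well-known targets. These mRNAs were not analysed here, because none of the 20486 gene identifiers deposited with the mRNA values was found in the RefSeq gene table used (0 matches).

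The sequences of all members are shown, because the family is defined by a common seed and its members are told apart by few bases outside it. They are given 5′ to 3′ as DNA letters, as in the deposited table, with the seed in capitals.
oar-let-7a: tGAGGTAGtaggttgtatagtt
oar-let-7b: tGAGGTAGtaggttgtgtggt
oar-let-7c: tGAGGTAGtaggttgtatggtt
oar-let-7d: aGAGGTAGtaggttgcatag
oar-let-7f: tGAGGTAGtagattgtatagt
oar-let-7g: tGAGGTAGtagtttgtacagt
oar-let-7i: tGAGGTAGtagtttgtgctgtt

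All 7 members had the same seed, and 14 of the first 20 positions were identical in all of them. Positions are counted from 1 at the 5′ end, and differences are written with the base of oar-let-7a first. Oar-let-7c differed from oar-let-7a by A19G and oar-let-7f by G12A. Oar-let-7b carried A17G and A19G, oar-let-7d T1A and T16C, and oar-let-7g G12T and T18C. Oar-let-7i was the most distant, with G12T, A17G, T18C and A19T. Of the 21 pairs of members, 3 were 1 base apart over their shared length, namely let-7a and let-7c, let-7a and let-7f, and let-7b and let-7c. How reads were divided between such pairs is not given in the sources used here, so their separate values are uncertain. The listed length was 22 nt for oar-let-7a, oar-let-7c and oar-let-7i, 21 nt for oar-let-7b, oar-let-7f and oar-let-7g, and 20 nt for oar-let-7d.

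A pair of further rows had the let-7 seed but no miRNA name, so the seed was found in 9 of the 649 rows. Of the 472 seeds in the table, 1 was found in more rows. These rows are shown because they would belong to any count made by seed.
chr18_7980: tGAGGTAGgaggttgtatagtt
chrX_13217: tGAGGTAGtaagttgtattgtt

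Row chr18_7980 differed from oar-let-7a by T9G alone, and row chrX_13217 by G11A and A19T. The RefSeq gene table of the goat (assembly ARS1.2) lists 8 let-7 genes, let-7a to let-7g and let-7i, and MIR98, whose miRNA has the same seed in mammals. The miRNA table named no row let-7e or miR-98. RefSeq lists MIRLET7E on chromosome 18 and MIR98 on chromosome X, the chromosomes in the names of the unnamed rows. These rows were not matched to the genes here. Every other row differed from each let-7 member at 9 or more positions, a missing base at the end counted as a difference.

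The let-7 family as a whole took a larger share of the reads at E55 and E65 than at E45. Its members summed to 32608.15 RPM at E45, 48536.24 RPM at E55 and 50320.33 RPM at E65. As a share of all reads assigned to the table this was 3.26% at E45 (exact Clopper-Pearson 95% interval 3.24% to 3.28%) against 4.85% at E55 (4.83% to 4.87%) and 5.03% at E65 (5.004% to 5.06%). These intervals, and all others below, cover counting error only, since reads amplified by PCR are not independent molecules and the spread between embryos is not in them. Comparisons are written as later over earlier stage, for example E55/E45. The family total was 1.49-fold higher at E55 than at E45 (95% interval 1.48 to 1.50) and 1.04-fold higher at E65 than at E55 (1.03 to 1.04). The step between E45 and E55 thus held most of the difference in the total, and this rested on let-7i. As log2 ratios, the total stood at 0.57 in E55/E45 and 0.05 in E65/E55, and without let-7i the other 6 members stood at 0.34 in both. With median scaling, where each library is divided by the median RPM of the rows above 0 in all 3 libraries, the total stood at 1.05 and 0.40. In RNA of a whole tissue, a higher share cannot be told apart from more cells of a type that holds the miRNA, and an RPM value also moves when other small RNAs change.

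Each library was dominated by let-7i and let-7a, which together made up 86.4% of the let-7 reads at E45 against 90.1% at E55 and 87.1% at E65. Oar-let-7i alone had 57.9% of the family total at E45 (57.6% to 58.3%), 64.1% at E55 (63.9% to 64.3%) and 56.3% at E65 (56.0% to 56.6%). Its share was highest at E55 and nearly the same at E45 and E65. Oar-let-7a held 28.4% at E45 against 26.0% at E55 and 30.8% at E65, so it was lowest where let-7i was highest. Oar-let-7c had 10.9% of the family at E45, 5.48% at E55 and 6.58% at E65. The other 4 members together made up 2.72% of the family at E45, 4.39% at E55 and 6.32% at E65. These shares within a library do not depend on how the libraries are scaled to each other.

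**Figure D1:**
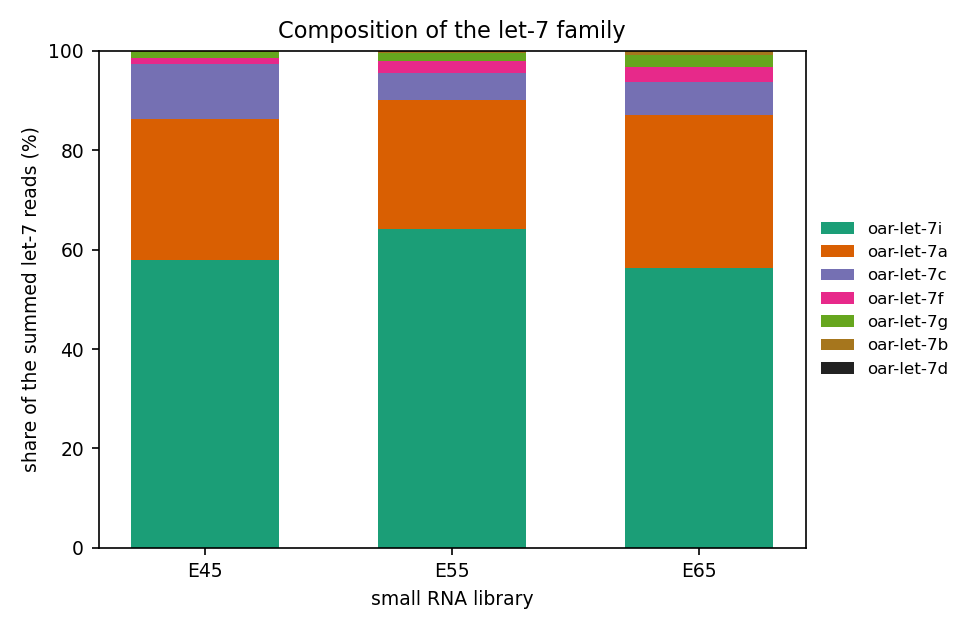
Share of each oar-let-7 member in the summed let-7 reads (y axis, percent) of the E45, E55 and E65 small RNA libraries (x axis), drawn as stacked bars that sum to 100. The let-7i segment is 57.9%, 64.1% and 56.3% high, the let-7c segment is 10.9% at E45 against 5.48% and 6.58% later, and let-7d is too small to be seen.

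Oar-let-7i, which in mammals comes from a single gene, was the member with the highest level in every library. It had 18885.84 RPM at E45, 31122.89 RPM at E55 and 28324.83 RPM at E65. It ranked 12th at E45, 6th at E55 and 7th at E65 by RPM among the 649 rows, and so was among the most abundant rows of each library. Its level was 1.65-fold higher at E55 than at E45 (95% interval 1.63 to 1.67) and slightly lower at E65 than at E55, with a ratio of 0.910 (0.902 to 0.919) and a log2 ratio of -0.14. It was the only member that was lower at E65 than at E55, and with median scaling this log2 ratio was positive, at 0.21.

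Oar-let-7a, the mature form that several genes encode in mammals, was second in every library. It had 9275.54 RPM at E45, 12623.67 RPM at E55 and 15502.40 RPM at E65. The level was thus higher at each later stage, by 1.36-fold (1.34 to 1.38) and then 1.23-fold (1.21 to 1.25). Its rank among all rows was 24 at E45 against 23 at E55 and 15 at E65.

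Oar-let-7c came next in every library and was the member whose level was not higher at E65 than at E45. It had 3559.78 RPM at E45, 2659.16 RPM at E55 and 3310.73 RPM at E65. The value was lowest at E55, and at E65 it was close to that at E45. The ratio was 0.747 in E55/E45 (0.726 to 0.768), 1.25 in E65/E55 (1.21 to 1.28) and 0.930 in E65/E45 (0.902 to 0.959). The direction in E55/E45 and in E65/E45 depended on the scaling. With median scaling the log2 ratios were 0.06 and 0.72 in place of -0.42 and -0.10, and scaling by the trimmed mean of M values (TMM, from edgeR) gave 0.27 in E65/E45.

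Oar-let-7f, 1 base from let-7a, had the largest log2 ratio of RPM + 1 of the family in E55/E45 and in E65/E45. Without the added 1, the fold of the sparsely read let-7d was larger, at 3.87 in E55/E45 (1.34 to 15.2) and 5.50 in E65/E45 (1.86 to 22.03), and its intervals included those of let-7f. Oar-let-7f had 375.48 RPM at E45, 1108.89 RPM at E55 and 1548.11 RPM at E65. At E55 the level was 2.95-fold that of E45 (2.75 to 3.17) and at E65 it was 1.40-fold that of E55 (1.34 to 1.46). Over the whole interval the difference was 4.12-fold (3.83 to 4.44). Its share of the family was 1.15% at E45 against 2.28% at E55 and 3.08% at E65.

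Oar-let-7g and oar-let-7b followed the same order of stages. Oar-let-7g had 403.59 RPM at E45, 788.22 RPM at E55 and 1215.88 RPM at E65, and the level at E65 was 3.01-fold that at E45 (2.80 to 3.24). Oar-let-7b had 106.29 RPM at E45, 227.11 RPM at E55 and 409.42 RPM at E65, and the level at E65 was 3.85-fold that at E45 (3.36 to 4.43). For both, the level was higher at each later stage by more than the counting error. Oar-let-7b had the largest ratio of the family in E65/E55, at 1.80-fold (1.65 to 1.98).

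Oar-let-7d was close to the limit of detection. It had 1.63 RPM at E45, 6.30 RPM at E55 and 8.96 RPM at E65. These levels corresponded to 4, 26 and 21 reads, where 3 reads was set as the limit of detection. The level at E65 was 5.50-fold that at E45, with a wide interval of 1.86 to 22.03. In E65/E55 the ratio was 1.42 and its interval, 0.760 to 2.63, included 1. The level of oar-let-7i was 11590-fold that of oar-let-7d at E45, 4940-fold at E55 and 3161-fold at E65, and the first of these rests on 4 reads of let-7d (0.444 to 4.17 RPM, exact Poisson 95% interval). The listed sequence of oar-let-7d was the shortest of the family (20 nt), and the part of this in its few reads was not tested.

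**Figure D2:**
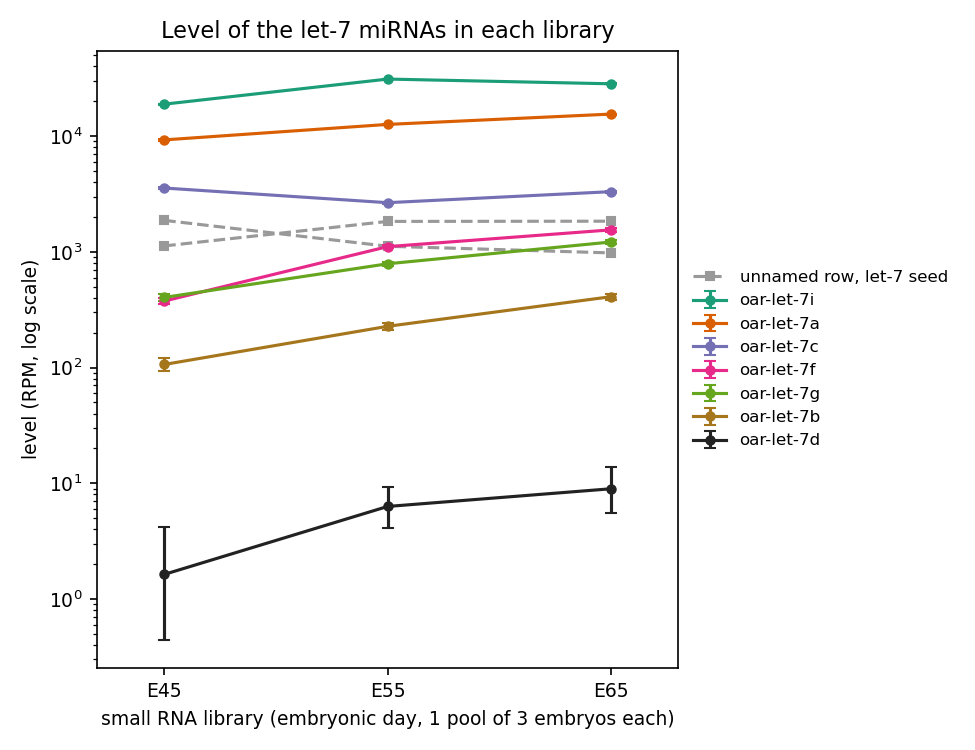
Level of each let-7 member in RPM (y axis, log scale) in the E45, E55 and E65 libraries (x axis), with exact Poisson 95% intervals of the reads as bars; grey dashed lines show the pair of unnamed rows with the let-7 seed. The top 3 lines keep their order, let-7f, let-7g and let-7b lie higher at each later stage, and let-7d lies far below, between 1.63 and 8.96 RPM.

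The order of the levels was let-7i, let-7a, let-7c, let-7f, let-7g, let-7b and let-7d at E55 and E65. At E45 let-7g stood above let-7f, but by only 1.07-fold (403.59 against 375.48 RPM), and their counting intervals overlapped. No other neighbours in the order had overlapping intervals in any library. The largest gap between neighbours was that between let-7b and let-7d, 65.2-fold at E45, 36.0-fold at E55 and 45.7-fold at E65. The values are shares of reads with no term for gene length, and how evenly the members were captured and how reads were divided between near-identical ones was not tested.

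The ratio between near-identical members differed between the libraries, and such a ratio does not depend on the scaling between libraries. For each 100 reads of let-7a there were 38.4 of let-7c at E45 (95% interval 37.4 to 39.3), 21.1 at E55 (20.6 to 21.5) and 21.4 at E65 (20.8 to 21.9). For let-7f the same ratio to let-7a was 4.05 at E45 (3.79 to 4.32) against 8.78 at E55 (8.52 to 9.05) and 9.99 at E65 (9.65 to 10.3). Both ratios differed mainly between E45 and E55, in opposite directions. Let-7b per 100 reads of let-7c was 2.99 at E45 (2.63 to 3.38) against 8.54 at E55 (7.98 to 9.13) and 12.4 at E65 (11.6 to 13.2). Let-7g per 100 reads of let-7i, which like let-7a and let-7f had 2 differences from it over 21 positions, was 2.14 at E45 against 2.53 at E55 and 4.29 at E65, so this ratio differed mainly between E55 and E65.

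Compared with the rest of the table, most let-7 members lay towards the higher side. The log2 ratio of 6 of the 7 was above the median of all rows in E55/E45 (not let-7c) and in E65/E55 (not let-7i), and all 7 were above it in E65/E45. On the scale of log2(RPM + 1), the median of the 7 members was 0.96 in E55/E45, 0.45 in E65/E55 and 1.59 in E65/E45. The median over all 649 rows was -0.25, -0.09 and -0.41 in the same order, so values relative to it are higher than the ratios themselves. Over the 151 sheep-named rows, to which the members belong, it was 0.15, -0.52 and -0.37. Many of these rows are miRNAs of the imprinted DLK1-DIO3 locus, such as miR-379-5p and miR-410-3p. The sheep-named rows are thus not a background of unrelated miRNAs. Against the median of the sheep-named rows, 6 of the 7 members were above in E55/E45 (not let-7c) and all 7 in E65/E55 and in E65/E45. The 3 comparisons share libraries and are not independent of each other. Between E45 and E55, 3 of the 7 members (let-7b, let-7d and let-7f) were higher by at least 1 on this scale, against 4.47% of all rows and 6.62% of the sheep-named rows. None was lower by that much, against 17.7% of all rows and 5.96% of the sheep-named rows. The counting interval of the fold included 2-fold for let-7b (1.86 to 2.46) and let-7d (1.34 to 15.2), but not for let-7f (2.75 to 3.17). Between E55 and E65 no member passed this size in either direction, against 6.32% of all rows higher and 16.3% lower. Among the sheep-named rows these shares were 5.30% and 27.2%. Between E45 and E65, 4 of the 7 members (let-7b, let-7d, let-7f and let-7g) were higher by at least 1, against 5.86% of all rows and 7.28% of the sheep-named rows. None was lower by that much, against 26.8% of all rows and 18.5% of the sheep-named rows. Of the 4 members that were higher, only let-7d had a counting interval that included 2-fold (1.86 to 22.03). With median scaling 5 members were higher by at least 1 in E55/E45, where 12.2% of all rows were, 1 was in E65/E55, where 11.9% were, and 6 were in E65/E45, where 17.4% were. With 10 added in place of 1, 2 members were higher by at least 1 in E55/E45, where 1.69% of all rows were, and 3 in E65/E45, where 2.47% were.

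The log2 ratios of the members ranged from -0.42 for let-7c to 1.56 for let-7f in E55/E45. In E65/E55 they ranged from -0.14 for let-7i to 0.85 for let-7b, and in E65/E45 from -0.10 for let-7c to 2.04 for let-7f. Relative to the median of all rows, let-7c was at -0.17, 0.41 and 0.30, and let-7i at 0.97, -0.05 and 0.99, in E55/E45, E65/E55 and E65/E45. In 5 members (let-7a, let-7b, let-7d, let-7f and let-7g) the level was higher at each later stage, a pattern found in 62 of all rows (9.55%), although the last step of let-7d was within its counting error. Let-7i was highest at E55, as were 26.7% of all rows by the same order of values, and let-7c was lower at E55 and then higher, as were 32.4%.

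**Figure D3:**
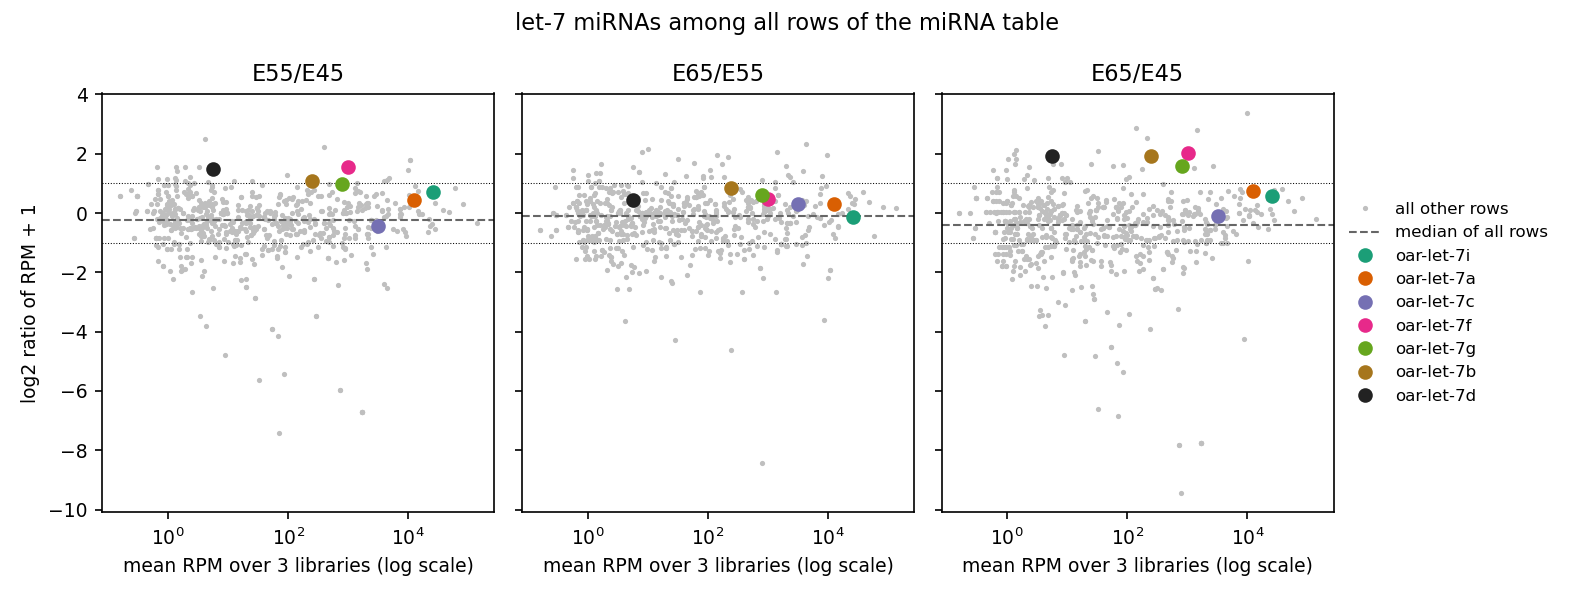
Log2 ratio of RPM + 1 (y axis) against the mean RPM over the 3 libraries (x axis, log scale) for the 649 rows in E55/E45, E65/E55 and E65/E45. Coloured points are the let-7 members, the dashed line is the median of all rows (-0.25, -0.09 and -0.41), and dotted lines mark 1 and -1; in E65/E45 let-7b, let-7d, let-7f and let-7g lie between 1.59 and 2.04 and the more abundant let-7i, let-7a and let-7c between -0.10 and 0.74.

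On the scale of log2(RPM + 1), the members with the larger ratios were those with the lower levels and the shorter listed sequences. For let-7d this held only with a small added value: with 10 added in place of 1 its log2 ratio was 0.49 in E55/E45 and 0.71 in E65/E45, below let-7i (0.72) in the former and let-7a (0.74) in the latter. The members listed at 20 or 21 nt (let-7b, let-7d, let-7f and let-7g) summed to 886.99 RPM at E45, 2130.52 RPM at E55 and 3182.37 RPM at E65, 3.59-fold higher in E65/E45 (3.42 to 3.77). Those listed at 22 nt (let-7a, let-7c and let-7i) were together 1.49-fold higher in the same comparison (1.47 to 1.50). In every library the 22 nt members were also the 3 most abundant, so length and level cannot be told apart here. Among the other sheep-named rows, many are of the DLK1-DIO3 locus. By length, the other sheep-named rows were 9 of 18 to 20 nt, 43 of 21 nt, 59 of 22 nt and 33 of 23 to 25 nt. In this order of length, their median log2 ratio was -0.17, -0.05, 0.21 and 0.32 in E55/E45, so that it was higher for longer sequences. In E65/E55 it was 0.46, -0.42, -0.57 and -0.89, lower for longer sequences, and in E65/E45 it was 0.13, -0.49, -0.37 and -0.55. In E65/E45 the 21 nt rows, the class of let-7b, let-7f and let-7g, thus lay below the 22 nt rows, and the 18 to 20 nt rows, the class of let-7d, above them. The part of the listed length in the let-7 values was not tested. Over all rows, sequences of 21 nt held 36.1% of the RPM at E45 against 33.0% at E55 and 35.7% at E65.

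**Figure D4:**
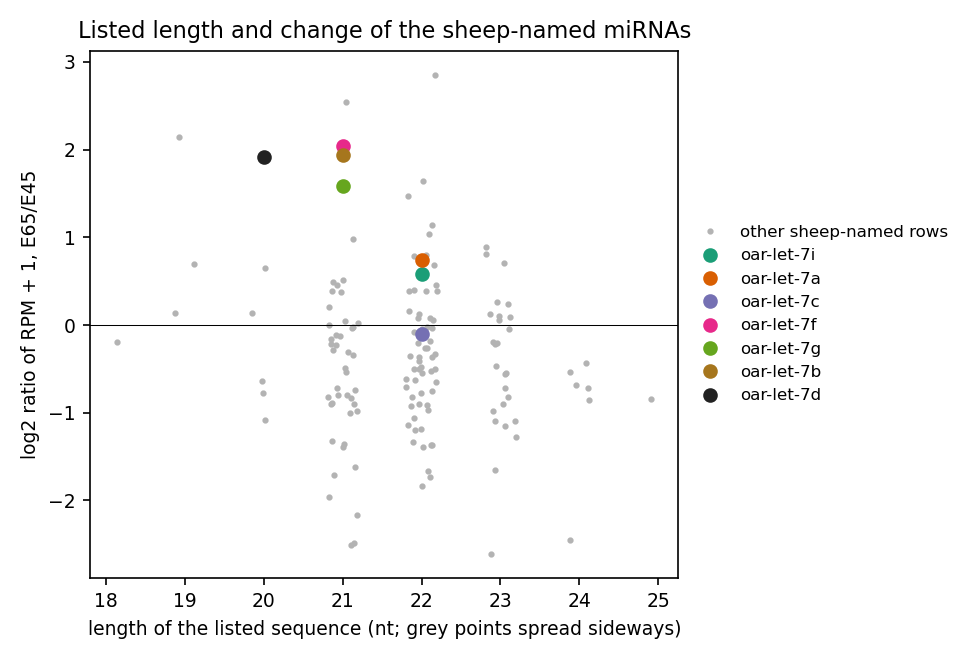
Log2 ratio of RPM + 1 in E65/E45 (y axis) against the length of the listed sequence in nt (x axis) for the sheep-named rows, with let-7 members coloured. The let-7 members of 20 and 21 nt lie at 1.59 to 2.04 and those of 22 nt at -0.10 to 0.74, while the grey points have a median of 0.13 at 18 to 20 nt, -0.49 at 21 nt, -0.37 at 22 nt and -0.55 at 23 to 25 nt.

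The unnamed rows with the let-7 seed differed from each other over the stages. Row chr18_7980 had 1870.50 RPM at E45, 1117.37 RPM at E55 and 978.76 RPM at E65, a ratio of 0.523 in E65/E45 (0.498 to 0.550). Row chrX_13217 had 1124.42 RPM at E45, 1831.67 RPM at E55 and 1839.82 RPM at E65, a ratio of 1.64 (1.56 to 1.72). The former was thus lower at the later stages, where most let-7 members were higher, and the latter had ratios close to those of the family total. Both were more abundant than let-7b in every library. Together they made up 8.41% of the reads with the let-7 seed at E45 against 5.73% at E55 and 5.30% at E65. With them, the reads with this seed were 3.56% of the library at E45 against 5.15% at E55 and 5.31% at E65.

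In mammalian genomes several let-7 genes lie next to each other or to genes of the miR-99, miR-100 and miR-125 families and are transcribed with them. In the RefSeq table of the goat, within 10 kb, let-7a neighboured let-7b, let-7d neighboured let-7f, let-7c neighboured MIR99A, and let-7e neighboured MIR99B. No miRNA gene was listed within this distance of let-7g or let-7i. Of the 6 miRNAs listed as let-7 partners, which include miR-98 for its seed and not its position, miR-99a and miR-125b were found by name. Oar-miR-99a, listed beside let-7c, had 3918.16 RPM at E45, 3575.84 RPM at E55 and 4311.67 RPM at E65. Its log2 ratios in E55/E45, E65/E55 and E65/E45 were -0.13, 0.27 and 0.14, beside -0.42, 0.32 and -0.10 for let-7c. With TMM scaling they were 0.15, 0.37 and 0.51, beside -0.14, 0.41 and 0.27, so in E55/E45 and E65/E45 the scaling decided whether both had the same sign. Oar-miR-125b had 8571.40 RPM at E45, 5678.49 RPM at E55 and 5229.87 RPM at E65, and was lower at each later stage, but with median scaling its log2 ratio was 0.23 in E65/E55 and 0.11 in E65/E45. Over the 3 libraries let-7c and miR-99a both lay between 2659.16 and 4311.67 RPM, whereas at E55 the level of let-7f was 176-fold that of let-7d and that of let-7a 55.6-fold that of let-7b. Several genes can give mature let-7a and let-7f, so these are levels of the mature miRNAs and not of the neighbouring genes.

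The sheep-named rows whose course was most like that of the let-7 total were sought with the let-7 members left out. The measure was the Euclidean distance of their pair of log2 ratios (E55/E45 and E65/E55) to those of the total, 0.57 and 0.05. Candidates were 113 rows averaging 10 RPM or more over the 3 libraries. The closest were miR-191 (distance 0.25), miR-22-3p (0.29), miR-143 (0.32), miR-3959-5p (0.33) and miR-494-3p (0.38). Of the let-7 members themselves, let-7i was at 0.24 and let-7a at 0.28, while let-7g was at 0.69 and the others at 0.95 to 1.08. As let-7i and let-7a make up most of the total, their small distances follow from how it is built. With 3 libraries this is a description of likeness only. Oar-miR-143, a miRNA of smooth muscle and other mesenchymal cells, was the most abundant sheep-named row in every library, with 67983.55 RPM at E45, 83127.59 RPM at E55 and 95670.07 RPM at E65. The most abundant row of all, chr15_7001, carried no miRNA name and had 155265.48 RPM at E45, 121796.52 RPM at E55 and 135431.71 RPM at E65.

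Markers of the cell types that skin samples can hold were examined in the same libraries. Of 5 miRNAs listed for epidermis, 3 were found by name, and they summed to 118.51 RPM at E45, 198.99 RPM at E55 and 759.13 RPM at E65. Oar-miR-200b, the most abundant of them, had 76.56, 120.95 and 451.21 RPM, and oar-miR-200a had 1, 2 and 3 reads, at or under the limit set for detection. For dermis and mesenchyme 3 of 6 were found, which summed to 109119.11, 115420.69 and 130920.02 RPM in the order of the stages. The higher sum at E65 came from oar-miR-143 alone, at a log2 ratio of 0.49 in E65/E45, while oar-miR-152 stood at -0.23 and oar-miR-199a-3p at -0.22. For muscle 1 of 3 was found, oar-miR-133, with 3105.69 RPM at E45, 6622.57 RPM at E55 and 2012.97 RPM at E65. It was highest at E55, as was let-7i in RPM, but with median scaling let-7i was higher at E65 than at E55 (log2 ratio 0.21). For immune cells 1 of 4 was found, oar-miR-150, at 6.11, 8.24 and 13.65 RPM. No miRNA listed for neurons (0 of 2), liver (0 of 1), red cells (0 of 2) or endothelium (0 of 1) was found by name, and since 498 rows have no miRNA name, these may be among them. The epidermal and muscle markers moved across the same libraries as the let-7 members, and the part of the tissue make-up in the let-7 values was not tested.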

How the data were processed

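Total RNA of the mixed skin of 3 embryos per stage was made into 1 small RNA library per stage, which per the labels was sequenced on an Illumina GAIIx and a NextSeq 500. The labels do not say which library ran on which instrument, so a part of the instrument in any difference was not tested. The submitters' processing notes name Bowtie; its version, the mismatches allowed, the treatment of reads that match several miRNAs and the genome build are not given in the sources used here. The deposited values are RPM, called TPM by the authors, for 649 rows, and each library sums to about 1000000. Where rows shared a sequence (110 rows, 47 sequences), their values were identical, so such reads count more than once in the total. No let-7 row was among them.

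The worth of 1 read was estimated from values of at most 8 RPM. Of 222 such values at E45, 256 at E55 and 245 at E65, 100% were whole multiples within 0.1 reads. Counting intervals (95%) were exact Poisson for levels, Clopper-Pearson for shares and exact conditional binomial for ratios. No count test was run on the reads, as each stage has 1 library. Log2 ratios used RPM + 1. A size of at least 1, the 2-fold change of the study's gene analysis, was counted. The recovery of reads and the ratios were tested on simulated data.

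The miRNAs named in the text were all let-7 members, the listed partners and markers, the 5 rows most like the let-7 total and the most abundant row of each library; the unnamed rows with the let-7 seed were added after their sequences were seen. The members and lists were chosen with earlier results of these data known. Alternatives were other pseudocounts, scalings, denominators, filters and thresholds; those with the 9 rows of the let-7 seed or with distinct sequences were chosen after seeing the data. The mRNA table and the precursor hairpins were not analysed here. Python 3.11.15, numpy 2.4.6, pandas 2.3.3, scipy 1.17.1 and matplotlib 3.10.9 were used, with R 4.3.3 and edgeR 4.0.16 for the TMM factors only.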

Additional observations from a re-analysis of the deposited data

How the results depend on the processing

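The signs of the log2 ratios of let-7a, let-7b, let-7d, let-7f and let-7g were the same under each pseudocount and scaling tried. Those of let-7c and let-7i were not: with median scaling the log2 ratio of let-7c became 0.060 in E55/E45 and 0.72 in E65/E45 (0.27 with TMM scaling), and that of let-7i became 0.21 in E65/E55. The largest log2 ratio in E55/E45 and E65/E45 was that of let-7f, but with pseudocount 0.1 it was that of let-7d (1.89 and 2.39 against 1.56 and 2.04), and likewise when scaled to the sheep-named rows (1.49 and 1.95 against 1.37 and 1.85). The 5 rows most like the let-7 total all averaged over 100 RPM (lowest miR-22-3p, at 137.82). A floor of 100 RPM for the candidates therefore could not change them. Shares within the family are not altered by scaling. The limits are the single library per stage, reads that may be divided wrongly between near-identical members, and the few reads of let-7d. The cause of the differences below was not tested, except where fewer rows or another denominator give it by construction. No paired analysis was possible because each stage has 1 small RNA library, and for the same reason no replicate could be left out.

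The median log2 ratio of the 7 members in E55/E45 became 0.72 with pseudocount 10, 1.44 with median scaling, 1.24 with TMM scaling and 0.77 when scaled to the sheep-named rows. In E65/E45 it became 0.74, 2.41, 1.96 and 1.39 in the same order. The median of all rows moved as well, from -0.25 in E55/E45 to -0.11, 0.16, -0.003 and -0.45, and from -0.41 in E65/E45 to -0.17, 0.26, -0.08 and -0.61. The family total, at log2 ratios of 0.57, 0.05 and 0.63 in E55/E45, E65/E55 and E65/E45, became 1.05, 0.40 and 1.45 with median scaling, 0.85, 0.15 and 1.00 with TMM scaling, and 0.34, 0.34 and 0.68 without let-7i. Scaled to the sheep-named rows it was 0.38 in E55/E45 and 0.43 in E65/E45, and over the 9 rows with the let-7 seed 0.53 and 0.58. With each distinct sequence counted once it was 0.027 in E65/E55 and 0.59 in E65/E45.

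With median scaling 5 members were higher by at least 1 in E55/E45 and 1 in E65/E55, and with a threshold of 0.5 these were 5 and 2, where 16.3% and 17.3% of all rows were higher by at least 0.5. In E55/E45 the count of 3 became 2 with pseudocount 10 and when scaled to the sheep-named rows (4.78% of all rows), and 4 with TMM scaling. In E65/E45 the count of 4 became 3 with pseudocount 10, 5 with TMM scaling, and 6 with median scaling and with a threshold of 0.5 (12.3% of all rows). The share of all rows higher by at least 1 in E55/E45 became 8.94% with pseudocount 0.1, 1.69% with pseudocount 10, 12.2% with median scaling and 8.32% with TMM scaling. In E65/E55 it became 3.54% with pseudocount 10 and 11.9% with median scaling, and in E65/E45 2.47%, 17.4% and, with TMM scaling, 8.94%. The share lower by at least 1 became 10.3%, 8.01% and 14.3% with pseudocount 10 in the 3 comparisons, 10.0% in E55/E45 and 13.3% in E65/E45 with median scaling, and 5.96% in E55/E45 and 27.2% in E65/E55 among sheep-named rows.

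The family total as a share of the library was 6.23% at E45 against 8.10% at E55 and 8.39% at E65 among sheep-named rows. It was 3.86%, 5.53% and 5.82% without the most abundant row, 3.42%, 5.05% and 5.15% with distinct sequences, and 3.56%, 5.15% and 5.31% with the 9 rows of the seed.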
